A study of Mus musculus with 4 samples.

Results

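The cytosolic ribosomal protein genes were taken from the array annotation as every gene named Rpl or Rps with a number, with or without a paralog suffix, together with the stalk proteins Rplp and the laminin-receptor protein Rpsa. The arrays carried 79 such names out of 18354, and 1651 of the 474380 probes. Ring1B, the catalytic subunit of Polycomb repressive complex 1, was immunoprecipitated from mouse embryonic fibroblasts, primary connective-tissue cells, and the recovered DNA was hybridised against input DNA on promoter tiling arrays. The cells came from C57BL/6 embryos of day 12.5 and were used at passage 2. One genotype was homozygous for Phc2 L307R, a substitution in the SAM domain of the Polycomb subunit Phc2, a domain through which the protein polymerises, and the other was wild type. Immunoprecipitate was labelled with Cy5 and input with Cy3 on all 4 arrays, with no dye swap, after amplification by T7 RNA polymerase. The probes were spread over 2 array designs that shared 0 probes, so each probe was read once in Phc2 L307R cells and once in wild-type cells. There was therefore no replicate of any value, no test was possible, and differences are described by their size and by the SD over neighbouring probes. Arrays of Phc2 L307R and of wild type were also scanned on different days, and this cannot be told apart from genotype. No RNA was measured on these arrays, so neither the fibroblast label nor the activity of these genes could be checked.

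Ribosomal proteins make up the protein part of the cytosolic ribosome, with the Rpl proteins in the large, or 60S, subunit and the Rps proteins in the small, or 40S, subunit. Their genes are transcribed at high rates in nearly all dividing cells, and in mammals most of their promoters lie in CpG-rich DNA, lack a TATA box and start transcription within a run of pyrimidines. Ring1B ubiquitinates histone H2A and is best known at the CpG islands of silent developmental regulators, while weaker binding at CpG islands of active genes is also known.

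The 5 promoters printed here, 250 bases before to 10 bases after the annotated transcription start, span the range of the Ring1B values. Rps12 had the highest ratio in both genotypes, Rpl10 was the highest of the X-linked genes, Rps27l had the largest positive difference between Phc2 L307R and wild type, Rps24 was the CpG-poorest of the 5 promoters with the largest such differences, and Rpl3l, the striated-muscle paralog of Rpl3, had the lowest ratio. They are given 5′ to 3′ on the strand of the gene, from RefSeq on GRCm38.p6, with every CpG in capitals. For Rps27l, Rps24 and Rpl3l the table lists more than 1 start, and the first is printed.
Rps12: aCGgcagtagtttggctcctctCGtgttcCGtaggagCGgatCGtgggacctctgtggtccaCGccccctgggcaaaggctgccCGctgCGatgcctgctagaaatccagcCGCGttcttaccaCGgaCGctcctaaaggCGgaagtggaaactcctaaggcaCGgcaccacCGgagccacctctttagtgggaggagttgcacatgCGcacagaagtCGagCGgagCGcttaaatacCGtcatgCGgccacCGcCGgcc
Rpl10: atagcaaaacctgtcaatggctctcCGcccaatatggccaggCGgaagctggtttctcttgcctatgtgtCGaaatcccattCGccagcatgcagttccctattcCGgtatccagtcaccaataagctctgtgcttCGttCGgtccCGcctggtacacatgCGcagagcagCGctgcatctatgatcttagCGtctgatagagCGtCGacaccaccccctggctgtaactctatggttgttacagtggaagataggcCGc
Rps27l: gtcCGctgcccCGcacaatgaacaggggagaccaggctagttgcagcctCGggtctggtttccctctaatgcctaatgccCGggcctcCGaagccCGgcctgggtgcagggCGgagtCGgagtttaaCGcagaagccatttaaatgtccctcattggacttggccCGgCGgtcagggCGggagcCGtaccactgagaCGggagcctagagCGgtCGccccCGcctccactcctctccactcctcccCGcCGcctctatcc
Rps24: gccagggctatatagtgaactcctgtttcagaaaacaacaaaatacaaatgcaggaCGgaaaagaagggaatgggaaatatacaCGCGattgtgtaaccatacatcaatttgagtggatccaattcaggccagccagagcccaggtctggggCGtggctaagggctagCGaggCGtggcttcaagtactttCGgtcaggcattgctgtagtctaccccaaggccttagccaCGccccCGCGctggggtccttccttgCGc
Rpl3l: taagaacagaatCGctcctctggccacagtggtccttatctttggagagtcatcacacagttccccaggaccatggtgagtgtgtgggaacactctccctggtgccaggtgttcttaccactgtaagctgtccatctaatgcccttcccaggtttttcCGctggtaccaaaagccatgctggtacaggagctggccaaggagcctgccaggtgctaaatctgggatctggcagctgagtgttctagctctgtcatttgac
They lie at chr10:23787200-23787459 (minus strand), chrX:74270566-74270825 (plus strand), chr9:66945836-66946095 (plus strand), chr14:24490428-24490687 (plus strand) and chr17:24727576-24727835 (plus strand). The printed stretch held 23 CpG in Rps12, 14 in Rpl10, 19 in Rps27l, 11 in Rps24 and 2 in Rpl3l. Rpl3l thus held far fewer CpG than the other 4. The build of the probe coordinates was not given in the sources used here, so probe positions below were not placed on these sequences.

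For each gene, log2(immunoprecipitate/input), called the ratio below, was centred on the median of its array and averaged over the 3 neighbouring probes with the highest mean over both genotypes, all within 2000 bp, called the window. A window mean of at least 1 is called bound, as a size rule and not as a test. Such a window existed for 78 of the 79 names, with 3 to 46 probes per gene (median 21). Rpl36 had only 2 probes of its own, with ratios of 2.03 and 1.07 in Phc2 L307R cells against 2.08 and 1.48 in wild-type cells. Rplp0 and Rpl34 were not analysed here.

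Ribosomal protein promoters carried a moderate Ring1B ratio in both genotypes. The median over the 78 promoters was 1.25 in Phc2 L307R cells, with a range of -0.07 to 3.101, and 1.22 in wild-type cells, with a range of -0.21 to 2.40. In Phc2 L307R cells 52 of 78 were bound, 66.7% (Wilson 95% interval 55.6% to 76.1%), against 39.3% of all 17649 promoters with a window. In wild-type cells 61 were bound, 78.2% (67.8% to 85.9%), against 45.4% of all promoters. These intervals cover counting error only. The members therefore passed the cut-off more often than the background in both genotypes with this processing, but the size of that excess depended on it. After normexp background correction 15 members (19.2%) were bound in Phc2 L307R cells, against 12.8% of all promoters, and 19 (24.4%) in wild-type cells, against 22.9%. In the wild-type value tables that the authors deposited, which do not equal the wild-type scanner values, 46 members (58.97%) passed, against 45.1% of all promoters.

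**Figure D1:**
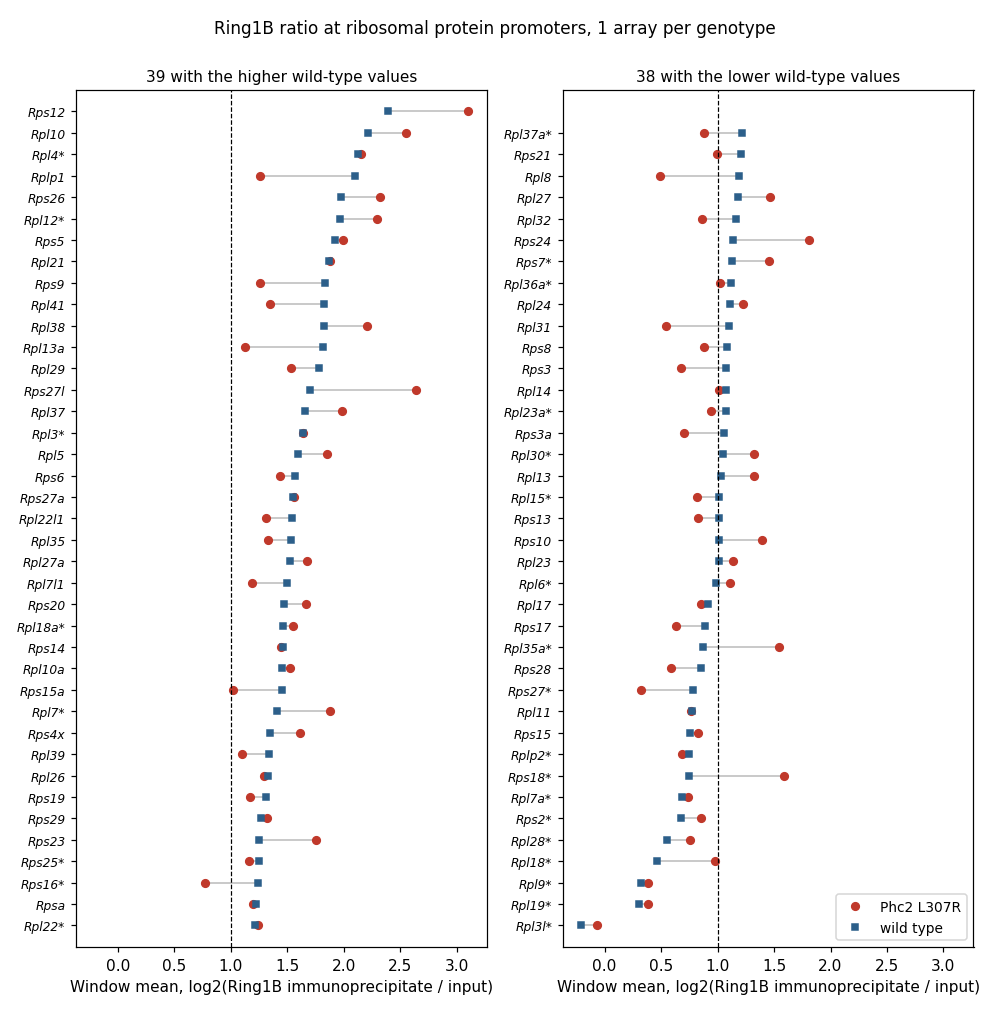
Window mean of log2(Ring1B immunoprecipitate/input) on the x axis for 77 of the 78 ribosomal protein promoters, ordered by the wild-type value and split into the higher 39 and the lower 38. Circles are Phc2 L307R and squares wild type (1 array each), the dashed line is the cut-off of 1, and an asterisk marks a gene with probes named for it and a neighbour. Most pairs of points lie close together, and genes with an asterisk gather at the low end.

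The members ranged over more than 2 log2 units, and the order was similar in both genotypes (Pearson r = 0.78, Spearman rho = 0.75 across 78 genes, which share the arrays and the choice of window and are not replicates). Rps12, a small-subunit protein, reached 2.59, 2.88 and 3.83 at its 3 window probes in Phc2 L307R cells against 2.22, 2.47 and 2.50 in wild-type cells (chromosome 10, 23476461 to 23476947). Each of its probes was higher in Phc2 L307R cells, and it was the only member at or above 3, in that genotype alone. Rpl10, an X-linked large-subunit protein near the peptidyl transferase centre, had 2.37, 2.24 and 3.04 in Phc2 L307R against 2.31, 2.15 and 2.20 in wild type (chromosome X, 70523243 to 70523561). Rpl4 had 2.70, 2.75 and 1.02 in Phc2 L307R against 3.08, 2.31 and 0.99 in wild type. Rpl4, a large-subunit protein whose loop lines the exit tunnel, thus had means of 2.16 in Phc2 L307R cells and 2.13 in wild-type cells, with probes inside 1 window differing far more than the genotypes. The 4 X-linked members, Rpl10, Rps4x, Rpl36a and Rpl39, were bound in both genotypes, at 1.02 to 2.55 in Phc2 L307R cells and 1.12 to 2.22 in wild-type cells. Rps4x, the X-linked small-subunit protein, had 1.61 in Phc2 L307R against 1.35 in wild type.

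Large-subunit and small-subunit genes had similar medians. The 41 large-subunit promoters had medians of 1.24 in Phc2 L307R cells and 1.19 in wild-type cells, and 28 were bound in Phc2 L307R and 32 in wild type. The 31 small-subunit promoters had 1.26 in Phc2 L307R and 1.24 in wild type, and 20 were bound in Phc2 L307R and 25 in wild type. Of the acidic stalk proteins, which recruit translation factors to the ribosome, Rplp1 had 1.26 in Phc2 L307R cells against 2.10 in wild-type cells, and Rplp2 had 0.68 in Phc2 L307R against 0.75 in wild type. Only Rplp1 of this pair was bound, in both genotypes. Rpsa, a small-subunit protein that was also described as a laminin receptor, had 1.20 in Phc2 L307R against 1.22 in wild type.

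The paralogs did not share a level. Rps27l, a paralog of Rps27 known as a p53 target in human cells, had 2.64 in Phc2 L307R cells against 1.70 in wild-type cells, Rpl22l1 had 1.31 in Phc2 L307R against 1.54 in wild type, and Rpl7l1 had 1.19 in Phc2 L307R against 1.49 in wild type. These 3 were bound in both genotypes. Rpl3l had -0.17, -0.24 and 0.20 at its window probes in Phc2 L307R cells against 0.06, 0.14 and -0.82 in wild-type cells (chromosome 17, 24461905 to 24463119). It was the lowest of the 78 in both genotypes, at -0.07 in Phc2 L307R and -0.21 in wild type, and stood near the array median. Its promoter also had the lowest CpG content of the members with a sequence, with 2 CpG in 300 bases.

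Many of the other low members were genes with part of their probes annotated jointly with a neighbouring gene. Such probes carry a joint name, such as Cacnb1-Rpl19, which falls outside the gene names used here. Of the 78 members, 26 had such probes, and they made up 11 of the 15 lowest members in wild-type cells against 2 of the 15 highest. The 26 had a median of 13 probes of their own, against 24.5 at the members without joint probes. They thus had fewer windows from which the highest was chosen. By their own probes the 26 had medians of 1.00 in Phc2 L307R cells and 1.03 in wild-type cells, and 13 of 26 were bound in Phc2 L307R and 14 in wild type. The 52 members without joint probes had 1.31 in Phc2 L307R and 1.34 in wild type, and 39 were bound in Phc2 L307R and 47 in wild type. When the joint probes were added, an alternative chosen after seeing the data, the 26 had medians of 1.33 in Phc2 L307R cells and 1.32 in wild-type cells, and 20 were bound in Phc2 L307R and 22 in wild type. Over all 79 names, Rpl36 included, 60 (75.9%) were then bound in Phc2 L307R and 70 (88.6%) in wild type. Added probes can raise the best window of any gene: at the 2890 other genes with a window and joint probes, the bound share was 31.6% in Phc2 L307R and 41.8% in wild type by their own probes, and 49.97% in Phc2 L307R and 61.3% in wild type with the joint probes. Rpl19, a large-subunit protein at a bridge between the subunits, was an example: its own window had 0.39 in Phc2 L307R cells against 0.30 in wild-type cells, and with the joint probes it had 1.51 in Phc2 L307R against 1.35 in wild type. Rps2, a small-subunit protein at the mRNA entry site, had 0.86 in Phc2 L307R against 0.67 in wild type by its own probes and 1.69 in Phc2 L307R against 1.83 in wild type with the joint probes. Rpl28 had 0.75 in Phc2 L307R against 0.55 in wild type, and 1.29 in Phc2 L307R against 1.20 in wild type with the joint probes. Rpl9 had 0.38 in Phc2 L307R against 0.32 in wild type, and 1.25 in Phc2 L307R against 0.22 in wild type, so that with them the genotypes lay further apart. Rpl18 had 0.98 in Phc2 L307R against 0.47 in wild type, and 1.29 in Phc2 L307R against 0.96 in wild type. Rpl3l stayed low, at -0.24 in Phc2 L307R against 0.28 in wild type.

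**Figure D2:**
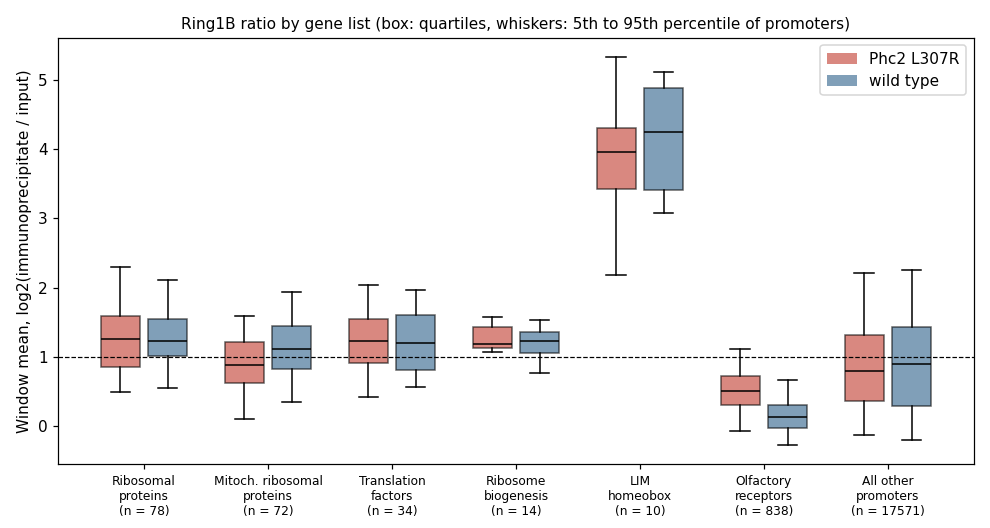
Window mean of log2(immunoprecipitate/input) by gene list, with Phc2 L307R left of wild type in each pair. Boxes give the quartiles and median over promoters, whiskers the 5th and 95th percentiles, and the dashed line the cut-off of 1. Ribosomal protein promoters lie near translation factor promoters and far below LIM homeobox promoters.

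Set against other genes, the ribosomal protein promoters stood far below classical Polycomb targets. The 10 LIM homeobox genes, transcription factors of embryonic patterning, had medians of 3.96 in Phc2 L307R cells and 4.24 in wild-type cells, and all 10 were bound in both. Their median difference, Phc2 L307R minus wild type, was -0.36 by the scanner values. In the deposited value tables the same windows had a wild-type median of 5.49 and a median difference of -1.61. The ribosomal protein windows had 1.05 and 0.14 there, against 0.84 and -0.01 over all promoters. The 838 olfactory receptor promoters, silent in fibroblasts, had 0.50 in Phc2 L307R and 0.13 in wild type, and 62 were bound in Phc2 L307R and 5 in wild type. The 34 translation factor promoters had 1.22 in Phc2 L307R and 1.20 in wild type, with 21 bound in Phc2 L307R and 22 in wild type, close to the ribosomal protein genes. Among them only Eef1b2, a subunit of the nucleotide exchange factor for the elongation factor that delivers tRNA, met the size rule for a difference (a window mean changed by at least 1 with all 3 probes on one side), at 1.96 in Phc2 L307R cells against 0.82 in wild-type cells. Its immunoprecipitate signal changed by 0.43 and its input signal by -0.73. Of all promoters, 0.839% were higher by this rule. The 14 ribosome biogenesis promoters had 1.18 in Phc2 L307R and 1.23 in wild type, with 13 bound in Phc2 L307R and 12 in wild type. Among them the nucleolar protein Npm1 had 1.13 in both genotypes, Ncl had 1.15 in Phc2 L307R and 1.31 in wild type, and the ribosomal DNA factor Ubtf had 1.79 in Phc2 L307R and 1.44 in wild type. The 72 mitochondrial ribosomal protein promoters had 0.88 in Phc2 L307R and 1.10 in wild type, with 30 bound in Phc2 L307R and 42 in wild type. Their median difference was -0.24, and 50 of 72 were lower in Phc2 L307R cells, whereas 37 of the 78 cytosolic members were. Of all 17649 promoters, 9617 were lower in Phc2 L307R cells. None of the 72 met the size rule in either direction.

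**Figure D3:**
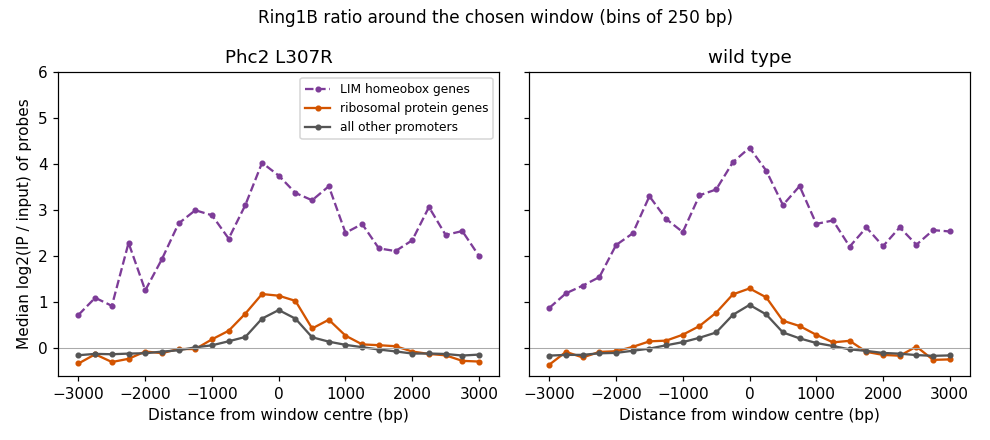
Median log2(immunoprecipitate/input) of probes in bins of 250 bp against the distance from the window centre, in Phc2 L307R (left) and wild type (right). The LIM homeobox line is dashed because its bins hold few probes (3 to 16). Windows were chosen as the highest, so a peak at 0 is built in. At 1500 bp on either side the line of the ribosomal protein genes lies between -0.02 and 0.16.

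The signal at ribosomal protein promoters was narrow beside that at LIM homeobox genes. Among bound members the run of windows at or above 1 spanned a median of 771 bp in Phc2 L307R cells and 874 bp in wild-type cells, against 894 bp in Phc2 L307R and 978 bp in wild type over all bound promoters. Runs were measured on a gene's own probes. Bound members without joint probes spanned 802 bp in Phc2 L307R and 1062 bp in wild type, and those with them 726 bp and 610.5 bp. In wild type the members without joint probes were thus not narrower than all bound promoters. At LIM homeobox genes it spanned 5279 bp in Phc2 L307R and 5323 bp in wild type. The widest runs of any member were 2684 bp, at Rpl10 in Phc2 L307R cells, and 2712 bp, at Rps12 in wild-type cells. Over all probes of a gene, the median of the means was 0.28 in Phc2 L307R cells and 0.32 in wild-type cells for the members, against 0.06 in Phc2 L307R and 0.08 in wild type for all promoters. LIM homeobox genes had 2.06 in Phc2 L307R and 2.68 in wild type. By that mean only 2 members reached 1 in Phc2 L307R, against 3.98% of all promoters, and 1 in wild type, against 4.71%. Of the members' single probes, 18.0% were at or above 1 in Phc2 L307R cells and 18.3% in wild-type cells, against 12.9% of all probes in Phc2 L307R and 13.99% in wild type.

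Across the ribosomal protein promoters, differences between the genotypes were small and went both ways. The median of the differences, Phc2 L307R minus wild type, was 0.0076 with quartiles of -0.23 and 0.24, and 41 members were higher and 37 lower. Over all promoters the median was -0.05, with 8032 higher and 9617 lower. By the size rule 0 of 78 members were lower, which allows a share of up to 3.85%, against 1.54% of all promoters, and 0 were higher, against 0.839%. With shares that small in the background, a count of 0 in 78 is near it. A difference of at least 0.5 in either direction occurred at 11 members (14.1%), against 24.2% of all promoters. The median SD of a difference over the 3 probes of a window was 0.37 for the members. It is a spread of single probes, whereas the quartiles above are of means over 3 probes, so the sizes are not directly comparable. Of the 64 members bound in either genotype, 49 were bound in both, 3 (4.69%) only in Phc2 L307R cells (Rpl35a, Rpl6 and Rps18) and 12 (18.8%) only in wild-type cells. Rpl35a, Rpl6 and Rps18 all have joint probes. With joint probes added, Rpl35a and Rps18 were bound in both genotypes, and the count bound only in Phc2 L307R cells was again 3. Of all promoters bound in either genotype, 10.9% were bound only in Phc2 L307R cells and 23.0% only in wild-type cells.

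The lowest and highest differences named single genes. Rplp1 had 1.09, 1.40 and 1.28 in Phc2 L307R cells against 2.04, 2.50 and 1.77 in wild-type cells, a difference of -0.85 (SD 0.32 over the 3 probes). All 3 of its probes were lower in Phc2 L307R cells. Rpl8, another protein near the peptidyl transferase centre, had 0.72, 0.39 and 0.37 in Phc2 L307R against 1.40, 1.35 and 0.82 in wild type (difference -0.70, SD 0.25). Rps9, a small-subunit protein whose bacterial homologue affects decoding accuracy, had 1.27, 1.05 and 1.46 in Phc2 L307R against 2.12, 1.62 and 1.76 in wild type (difference -0.57, SD 0.27). In these 3 genes every probe moved the same way. Rpl13a, known in human cells also for translational control of inflammatory mRNAs, had 1.19, 1.07 and 1.11 in Phc2 L307R against 2.81, 1.43 and 1.21 in wild type (difference -0.69, SD 0.82), and Rpl31 had 1.04, -0.18 and 0.77 in Phc2 L307R against 0.74, 1.01 and 1.56 in wild type (difference -0.56, SD 0.77). The Rpl13a difference came mostly from its first probe, and the Rpl31 probes moved in both directions. Across 10 settings the difference was -0.79 to 0.24 at Rpl8, -0.76 to 0.64 at Rpl13a and -0.64 to 0.13 at Rps9. These 3 decreases thus did not keep their sign in every setting. In the deposited value tables the windows above, not chosen anew, differed by -0.06 at Rpl8, -0.06 at Rpl13a and 0.01 at Rps9. There Rpl31 differed by 0.13 and Rplp1 by -0.35.

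On the higher side, Rps27l had 3.51, 1.32 and 3.09 in Phc2 L307R cells against 2.70, 0.90 and 1.497 in wild-type cells, a difference of 0.94 (SD 0.60) at chromosome 9, 66745093 to 66745580. All 3 of its probes were higher in Phc2 L307R cells. Rps24, a small-subunit protein mutated in human Diamond-Blackfan anaemia, had 2.09, 1.92 and 1.42 in Phc2 L307R against 1.28, 1.38 and 0.75 in wild type (difference 0.67, SD 0.13), the most even of these differences. Rps12 differed by 0.70 (SD 0.54). Rps18 had 2.36, 1.51 and 0.90 in Phc2 L307R against 0.60, 0.73 and 0.91 in wild type (difference 0.84, SD 0.89), and its last probe had about the same ratio in both. With its joint probes added, Rps18 had 1.02 in Phc2 L307R against 1.36 in wild type, a difference of -0.35. Rpl35a, also mutated in that disease, had 2.56, 1.63 and 0.45 in Phc2 L307R against 1.22, 1.20 and 0.19 in wild type (difference 0.68, SD 0.58). With its joint probes added, Rpl35a had 1.86 in Phc2 L307R against 1.30 in wild type.

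In 8 of these 10 genes, the 5 lowest and 5 highest differences, the input changed more than 2 times as far as the immunoprecipitate, and in Rpl35a and Rpl31 it did not. The same count is not given for other promoters, and these genes were picked by a ratio that contains the input. The 8 of 10 is therefore a description of these genes only. Each channel was centred on its array median, and since a spot's brightness also depends on its probe, a level is compared only between the genotypes at the same probes. For Rps27l the immunoprecipitate signal was 0.48 in Phc2 L307R cells against 0.86 in wild-type cells, lower and not higher, while the input signal was -2.05 in Phc2 L307R against -0.69 in wild type. For Rps24 the immunoprecipitate was -0.01 in Phc2 L307R against -0.07 in wild type and the input -1.70 in Phc2 L307R against -1.06 in wild type. For Rps18 the immunoprecipitate changed by 0.09 and the input by -0.79. For Rpl35a the immunoprecipitate changed by 0.33 and the input by -0.38, and for Rpl31 by -0.29 and 0.26. For Rplp1 the immunoprecipitate was 0.94 in Phc2 L307R against 1.17 in wild type and the input -0.20 in Phc2 L307R against -0.78 in wild type. Over all members the input moved further than the immunoprecipitate in 46 of 78 (58.97%), against 45.9% of all promoters. Across the 78 members the ratio difference correlated at -0.73 with the input difference and at 0.21 with the immunoprecipitate difference, against -0.54 and 0.54 over all 17649 promoters. A ratio contains both channels, so such correlations arise partly by construction, and genes are not independent replicates.

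**Figure D4:**
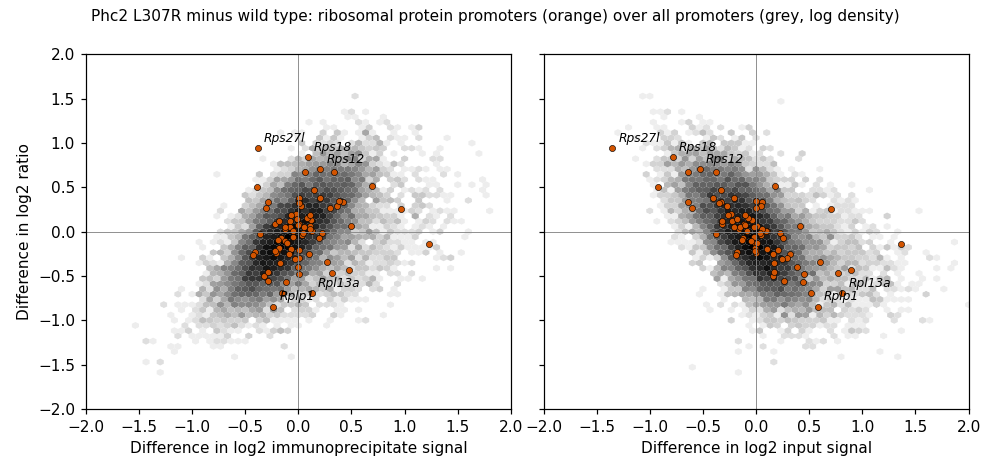
Difference in log2 ratio, Phc2 L307R minus wild type, against the difference in the log2 immunoprecipitate signal (left) and in the log2 input signal (right). Orange points are the 78 ribosomal protein promoters and grey the density of all promoters. The members spread along the input axis, with Rps27l at the far left and Rplp1 right of 0.

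Over the members as a group, the median change was near 0 in both channels. The immunoprecipitate had medians of 0.86 in Phc2 L307R cells and 0.83 in wild-type cells, and the input -0.26 in Phc2 L307R and -0.29 in wild type. The median change was -0.00080 in the immunoprecipitate and -0.0072 in the input. Input was often dim: at 81 of the 234 window probes (34.6%) it was not well above background in Phc2 L307R cells, against 46 (19.7%) in wild-type cells, while the immunoprecipitate was so at 0 in both. The dim window probes included all 3 of Rps24 and all 3 of Rps27l in Phc2 L307R cells. When probes with a dim channel in either genotype were dropped and windows chosen anew, the difference was 0.0735 at Rps27l, -0.45 at Rps24, -0.31 at Rps12 and 0.17 at Rps18, and after normexp it was -0.0529, 0.0186, 0.10 and -0.51. In these settings the differences of the 4 genes either lost most of their size or changed sign. Rpl35a kept its sign, with differences of 0.36 without dim probes and 0.33 after normexp. The Rplp1 difference kept its sign in every setting tried, between -1.03 and -0.25, the latter after normexp. Rplp1 input was dim too, at the first and second window probes in wild-type cells and at the first in Phc2 L307R cells. How far dim input accounts for these differences was not tested.

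The 2 array designs did not give the same picture. The 36 members on design 1 had medians of 1.07 in Phc2 L307R cells and 1.22 in wild-type cells, a median difference of -0.14. Of these, 19 (52.8%) were bound in Phc2 L307R, against 38.3% of other promoters on that design, and 27 in wild type, against 45.5%. The 42 on design 2 had 1.33 in Phc2 L307R and 1.23 in wild type, a median difference of 0.07. Of these, 33 (78.6%) were bound in Phc2 L307R, against 40.03% of other promoters there, and 34 (80.95%) in wild type, against 45.1%. The input change was 0.16 on design 1 and -0.09 on design 2, opposite in sign to the ratio difference on each. Other promoters had median differences of -0.07 on design 1 and -0.03 on design 2. The genes on the designs differ, so an effect of the array and of the genes cannot be told apart.

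A RefSeq promoter of 300 bases was matched for 59 of the 78 members. They were richer in CpG than other promoters but not in GC: the median observed-to-expected CpG ratio was 0.87, with 21 CpG per promoter and 57.0% GC, against 0.66, 16 and 58.3% for the 12823 genes with a window and a sequence. High CpG content, set here as at least 55% GC and a CpG ratio of at least 0.75, was present in 28 of 59 (47.5%) against 34.9%. Over all promoters the Ring1B ratio increased with the CpG ratio (r = 0.37 in Phc2 L307R cells and 0.47 in wild-type cells). Within the 59 members it showed no such increase (r = -0.07 in Phc2 L307R and 0.03 in wild type). Spearman rho there was -0.23 in Phc2 L307R and -0.16 in wild type. These are correlations across genes on the same arrays. Members with joint probes had a median CpG ratio of 1.02, against 0.83 for those without, so CpG content and probe naming were mixed among the members.

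**Figure D5:**
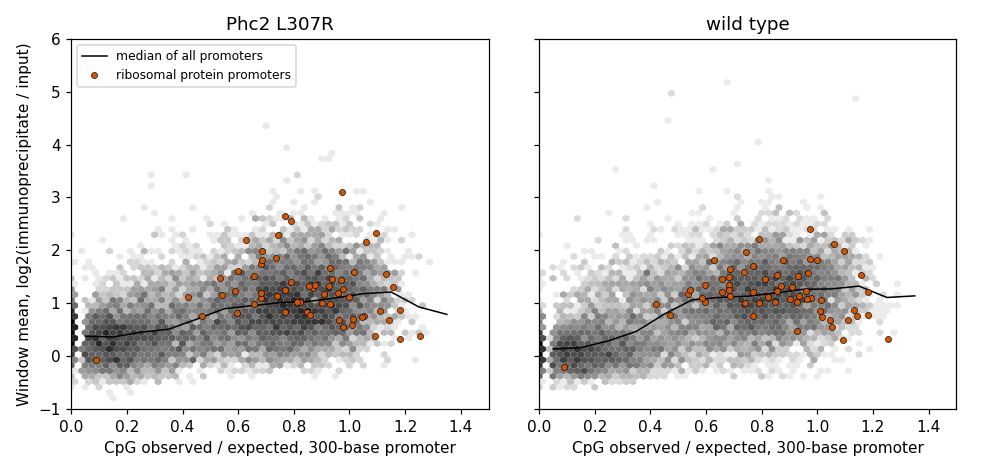
Window mean of log2(immunoprecipitate/input) against the observed-to-expected CpG ratio of the 300-base promoter, in Phc2 L307R (left) and wild type (right). Orange points are the 59 ribosomal protein promoters with a sequence, grey is the density of all promoters and the line their median in steps of 0.1. The line climbs with CpG content while the members scatter around it, the CpG-richest below and many others above.

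The 28 high-CpG members were bound about as often as other high-CpG promoters: 15 (53.6%) in Phc2 L307R cells and 18 (64.3%) in wild-type cells, against 54.97% in Phc2 L307R and 65.3% in wild type of 4450 others. Their medians were 1.01 in Phc2 L307R, against 1.08 for the others, and 1.09 in wild type, against 1.23. The 31 members below these limits had 1.26 in Phc2 L307R and 1.25 in wild type, whereas 8314 others had 0.64 in both. Of the 31, 24 (77.4%) were bound in Phc2 L307R, against 31.1% of those others, and 26 (83.9%) in wild type, against 35.8%. The 31 members held more CpG, with a median CpG ratio of 0.68 against 0.42 for the 8314 others, so this comparison is not between promoters of like CpG content. Joint probes moved with this split. Among members without them, 12 of the 17 high-CpG genes (70.6%) were bound in Phc2 L307R and 15 (88.2%) in wild type. Of the 21 below the limits, 18 (85.7%) were bound in Phc2 L307R and 20 (95.2%) in wild type. The 4450 and 8314 others were not limited to genes without joint probes. Their shares are therefore no like comparison for these members, and whether the members exceed other promoters without joint probes was not tested. The 19 members with no sequence matched had medians of 1.44 in Phc2 L307R and 1.46 in wild type, with 13 bound in Phc2 L307R and 17 in wild type.

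Short motifs were counted on both strands of the 300 bases unless a strand is stated, each as its letters alone. CCGGAA, the core of ETS-family sites, was in 52.5% of the members' promoters against 21.5% of those of genes with a window, and TTTCC was in 84.7% against 59.9%. GGGCGG, the GC box, was in 59.3% against 52.8%, AAGATGGC, a YY1-type sequence, in 8.47% against 3.61%, and TATAAA in 8.47% against 11.9%. A run of at least 8 pyrimidines on the gene's strand within 10 bases before to 20 after the start was in 35.6% against 11.02%. The printed Rps12 promoter holds neither CCGGAA nor GGGCGG nor TATAAA. Members with CCGGAA had median ratios of 1.19 in Phc2 L307R cells and 1.18 in wild-type cells (31 genes), and those without it 1.20 in Phc2 L307R and 1.22 in wild type (28 genes). Read on the other strand, TTTCC can overlap CCGGAA. Matches are letters in a window and not binding sites.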

How the data were processed

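Ring1B immunoprecipitate and input DNA were read on 4 arrays, 1 per genotype and array design. The deposited scanner files hold spot intensity and a log10 ratio of Cy5 over Cy3, quantified with Feature Extraction 10.7.3.1, per the file headers. Value tables were deposited too, also as log10 ratios. For Phc2 L307R they correlated with the scanner ratios at 0.999 on both designs, and for wild type at 0.854 and 0.890, for a reason not given in the sources used here. The share of probes with input well above background was 75.0% and 76.3% in Phc2 L307R cells and 85.7% and 86.7% in wild-type cells, and that with bright immunoprecipitate 97.9% to 99.7%.

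Ratios were turned to log2 and centred on each array's median, after control spots and outlier-flagged spots were left out. No loess or quantile step was used, since many probes of such an array may carry signal. Windows, the cut-off of 1 for bound and the size rule are given with the results. Values were computed with Python 3.11.15 and pandas 2.3.3, and the normexp (offset 50) and loess alternatives with limma 3.58.1 in R 4.3.3. The scripts were tested on simulated data. Named genes are the 5 highest and 5 lowest in wild type, the 5 lowest and 5 highest differences, stalk proteins, Rpsa, Rps4x and paralogs. One gene of this rule is not reported here. Rpl6, Rps2, Rpl36, Rpl36a, Rpl39 and the genes of other lists were named after their values were seen. Of 78 symbols, 77 matched RefSeq and 1 matched a synonym. The members and lists were chosen with earlier results of these data known.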

Additional observations from a re-analysis of the deposited data

How the results depend on the processing

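No paired analysis was possible because the shared title numbers name array designs with 0 probes in common. The median ratio of the members, 1.25 in Phc2 L307R cells and 1.22 in wild-type cells, became 0.74 in Phc2 L307R and 0.81 in wild type after normexp, and 0.28 in Phc2 L307R and 0.32 in wild type as the mean over all probes, and the Phc2 L307R median became 0.83 with only probes well above background. The count of bound members in Phc2 L307R, 52, became 15 after normexp, 2 by the mean over all probes, 25 at a cut-off of 1.5 and 27 with only probes well above background. In wild type, 61 became 19 after normexp, 1 by the mean over all probes and 23 at a cut-off of 1.5. On array design 1 alone the count was 19 in Phc2 L307R and 27 in wild type, out of 36 members. On array design 2 alone it was 33 in Phc2 L307R and 34 in wild type, out of 42 members. The designs hold different genes, so these counts do not check each other. After normexp and by the mean over all probes, the wild-type share of bound members was near or below that of all promoters. The median difference stayed between -0.14 and 0.14 in all settings, with both signs. By the size rule 1 member was lower with arrays scaled to the same median absolute deviation (Rplp1, -1.03) and 1 was higher in the value tables (Rps27l, 1.18). At 1.5-fold, 3 were lower and 4 higher, against 6.87% and 3.25% of all promoters. Adding joint probes was chosen after seeing the data. Signal over background limits the input channel most, and the single array per genotype limits every difference.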
